A study of Mus musculus with 2 samples.

Results

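Tag G6 was 1 of 16 tags, G1 to G16, that open the column names of single medulloblastoma cells in the older of the study's libraries. All columns opening with Hi_G6_ were taken, which gave 456 cells of the 4991 in that library and of the 10991 cells and barcodes in the series. The tag was given the working name progenitor-like, with Mcm6, Mcm3 and Cdt1 as its genes. No label says what the tags stand for. The tags differed strongly in gene expression, so every value here is a description and none is a test of the tag.

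The cells came from tumours of mice with the genotype hGFAPcre;Ptchc/c at postnatal days 24 to 30 (P24-30). In them Cre recombinase, driven by a GFAP promoter, is used to delete Ptch, which encodes the receptor holding Sonic hedgehog (SHH) signalling in check. All cells came from tumours of that same genotype, no library without it was analysed here, and the number of animals is not stated. Whether a given cell had lost Ptch was not measured: Ptch1 had 20 UMIs in G6 cells and 128 in the other tags, and counts at 3′ ends do not show whether an RNA lacks the deleted part. The other library, of postnatal day 12 (P12) tumours of the same genotype, has 6000 barcodes and no tags, so G6 cells could not be picked out in it. Drop-seq was used, a droplet method that counts messenger RNA molecules at their 3′ ends through molecular barcodes (UMIs). G6 cells were compared with the 379 cells of tag G5, the 334 of tag G7, and all 4535 cells of the other tags.

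SHH medulloblastoma arises from granule neuron progenitors of the cerebellum, which divide while SHH signalling is on and then leave the cell cycle to become granule neurons. Before a cell copies its DNA, each replication origin is licensed: the origin recognition complex (Orc1 to Orc6), Cdc6 and Cdt1 load the Mcm2 to Mcm7 ring, the core of the replicative helicase, while geminin (Gmnn) blocks reloading. E2F transcription factors drive many of these genes as the cell enters S phase. Genes of mitosis are switched on later, in G2. Canonical histone genes, such as those of the Hist1h2a family, make their RNA in S phase, and most of those RNAs lack the poly(A) tail by which Drop-seq beads capture messages.

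The promoters of the 3 genes that gave the tag its name are shown because E2F sites are known regulators of licensing genes. Each is the 250 bases before the gene's start in RefSeq on GRCm38.p6, read 5′ to 3′ along the gene. Capitals mark matches to the E2F letters TTTCCCGC, TTTGGCGC, TTTCGCGC or TTTGCCGC on either strand. Mcm6 lies at chr1:128359706-128359955 on the minus strand, Mcm3 at chr1:20820313-20820562 on the minus strand, and Cdt1 at chr8:122567765-122568014 on the plus strand.
Mcm6: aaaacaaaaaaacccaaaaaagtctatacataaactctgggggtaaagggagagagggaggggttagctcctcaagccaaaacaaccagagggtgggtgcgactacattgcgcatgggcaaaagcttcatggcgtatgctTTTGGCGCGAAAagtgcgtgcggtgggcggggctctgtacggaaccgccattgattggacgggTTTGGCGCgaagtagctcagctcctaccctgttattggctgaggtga
Mcm3: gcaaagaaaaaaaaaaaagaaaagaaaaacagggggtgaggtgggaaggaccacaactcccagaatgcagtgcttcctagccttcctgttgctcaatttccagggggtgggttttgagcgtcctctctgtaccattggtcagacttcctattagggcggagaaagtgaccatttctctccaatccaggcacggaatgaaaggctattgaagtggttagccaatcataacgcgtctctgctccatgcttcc
Cdt1: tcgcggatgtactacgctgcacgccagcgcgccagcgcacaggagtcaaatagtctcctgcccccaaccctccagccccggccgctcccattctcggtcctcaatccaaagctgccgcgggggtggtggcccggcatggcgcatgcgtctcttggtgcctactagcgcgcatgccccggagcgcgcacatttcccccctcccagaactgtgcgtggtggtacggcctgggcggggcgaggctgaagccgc
The Mcm6 window held 3 matches, opening 110, 106 and 47 bases before the start, and the first 2 of them overlapped. The Mcm3 and Cdt1 windows held 0 matches, which says only that these letters are not in these windows. Among all 32851 RefSeq windows of this length, 1.86% held at least 1 match, as did 377 of the 8640 with a window among genes tested against all other tags (4.36%). Of the 15 origin licensing genes with a window, 6 held one (40%), as did 3 of 51 genes of G2 and M phase (5.88%) and 0 of 21 genes of differentiating granule neurons. A match is a description of the letters and not a site of binding.

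G6 cells had a median depth close to that of the other tags, and all of them passed the filters. All 456 reached 500 UMIs with no more than 20% of them mitochondrial, with a lowest depth of 770, a median of 2259.5 and a highest of 8194 UMIs, and they held 1116044 UMIs together. The median depth was 2273 in the 377 G5 cells kept, 2192.5 in the 334 G7 cells and 2189.5 in the 4340 cells kept of all other tags. Mitochondrial genes held 2.94% of UMIs in G6 cells and 3.22% in the other tags, and ribosomal protein genes 16.9% and 14.5%. There is 1 library, so no value has a replicate check. Intervals are exact 95% intervals that cover counting error only, and cells of 1 library share their source. Levels are CPM, UMIs of a gene per 1000000 UMIs of the group. Ratios are CPM ratios divided by that of the median gene, so 1 means that a gene moved with the typical gene. A gene is called higher or lower when this ratio is at least 1.5-fold from 1. Near-identical gene copies can share reads, and whether counting used strand is not stated in the labels.

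The 3 name genes were all at their second highest level of the 16 tags in G6 cells, below tag G3. Mcm6, a subunit of the licensing ring, was at 219.5 CPM in G6 cells (95% interval 193 to 249), 157 in G5, 179 in G7 and 119 in all other tags together. Mcm3, another subunit of the ring, was at 207 CPM in G6 cells (181 to 235), 179.5 in G5, 135 in G7 and 104 in all other tags. Cdt1, the loader, was at 99.5 CPM in G6 cells (81.8 to 120), 91.9 in G5, 60.2 in G7 and 59.4 in all other tags. The intervals of G6 overlapped those of G5 for Mcm3 and Cdt1, where G5 had 153 to 209 and 73.4 to 114, and ended clear of those of G5 for Mcm6 (132 to 184.5). In tag G3, Mcm6 was at 289 CPM (249 to 334), Mcm3 at 237 (201 to 278) and Cdt1 at 136 (109 to 168), with intervals that touched or overlapped those of G6.

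Among single cells these genes were sparse. A UMI of Mcm6 was seen in 177 of 456 G6 cells, of Mcm3 in 140 and of Cdt1 in 88, with at most 6, 5 and 3 UMIs in any cell, so no single cell carried the levels. With each cell thinned to 500 UMIs, the share of cells with a UMI of any of Mcm2 to Mcm7 was 38.6% in G6 (176 of 456, 34.1 to 43.2), against 35.3% in G5, 29.3% in G7 and 23.8% in all other tags. Before thinning the shares were 80.7%, 71.1%, 67.4% and 59.0%. Background was read in 55 cells with at least 3 microglia markers, a cell type in which these genes should be low, and which had a median depth of 2265 UMIs. There 12.7% had such a UMI after thinning (7 of 55, 5.27 to 24.5), below the interval of G6. For 1 gene at a time the shares were less clear: Mcm3 was in 9.65% of thinned G6 cells and 5.45% of microglia-marked cells (1.14 to 15.1), and Cdt1 in 3.51% of G6 cells and 0 of 55 microglia-marked cells, where a limit of 3 cells in 55 would be 5.45%. Of these marked cells 1 was itself a G6 cell, and 5 were G5 cells.

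**Figure D1:**
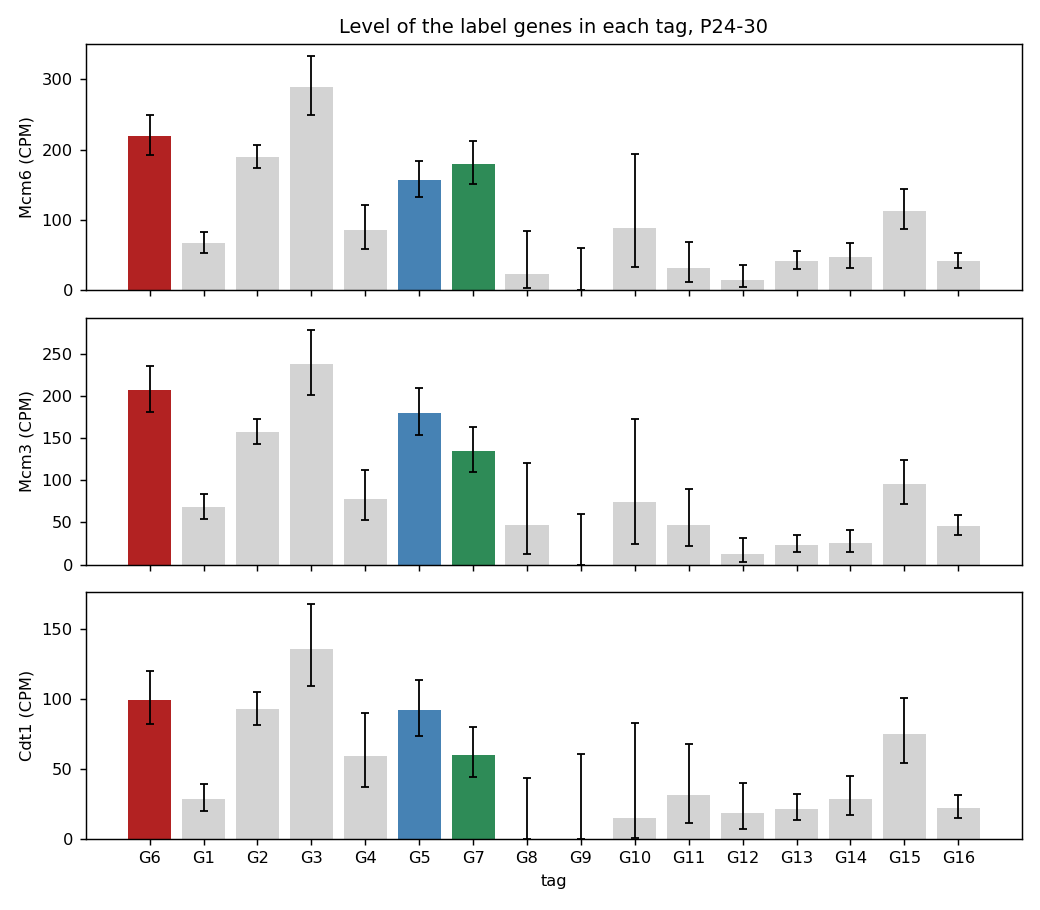
Level in CPM of Mcm6 (top), Mcm3 (middle) and Cdt1 (bottom) in each of the 16 tags, G6 first, with exact 95% counting intervals as error bars. G6 stands second to G3 in all 3 panels, with 219.5, 207 and 99.5 CPM, and G5 and G7 are coloured for comparison.

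Licensing genes other than the name genes were also at a higher summed level in G6 cells than in all other tags. Over all 11085 genes tested, with at least 50 UMIs, 604 were higher in G6 cells (5.45%) and 1758 lower (15.9%). Of the 17 origin licensing genes, 9 were higher and 1 lower, and their median log2 ratio was 0.67, beside 0.00 over all genes tested. Their summed level was 2537 CPM in G6 cells and 1928 CPM in the other tags, a ratio of 1.36 (1.31 to 1.42). Without Mcm6, Mcm3 and Cdt1, 6 of the 14 left were higher and 1 lower, with a median log2 ratio of 0.43 and a sum ratio of 1.26 (1.21 to 1.32). The Mcm2 to Mcm7 ring alone stood at 1115 CPM in G6 and 651 CPM in the other tags, a ratio of 1.77 (1.67 to 1.88).

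By role, the ring subunits and loaders were higher and the initiating kinase was not. Ratios of the ring were 2.06 for Mcm3 (1.78 to 2.37), 2.05 for Mcm4, 2.01 for Mcm2, 1.90 for Mcm6, 1.81 for Mcm5 and 1.40 for Mcm7, the last short of the threshold. Cdc6, which recruits the ring to the origin complex, had 56.4 CPM in G6 cells and 23.3 in the other tags, a ratio of 2.51 (1.88 to 3.32). Cdt1 had a ratio of 1.73 (1.40 to 2.12) and geminin, its inhibitor, one of 1.31 (1.07 to 1.58). Of the origin recognition complex, Orc2 had a ratio of 1.60 and Orc1 one of 1.73 on only 11 UMIs in G6, with an interval of 0.82 to 3.30. Orc3, Orc4, Orc5 and Orc6 lay between 0.97 and 1.15. The kinase Cdc7, which fires licensed origins, had a ratio of 0.98, while its activator Dbf4 was at 34.9 CPM in G6 cells and 86.8 in the other tags, a ratio of 0.42 (0.29 to 0.57).

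Ung and licensing genes were among those with the greatest excess in G6 cells, behind genes that rested on single cells. As deposited, the ranking by the near bound of the interval was led by the haemoglobin genes Hbb-bt, Hbb-bs, Hba-a2 and Hba-a1, with ratios of 132, 76.2, 62.4 and 47.7. Of the 2359 UMIs of erythroid markers in G6, 2323 lay in 1 cell of 6483 UMIs, and without the highest cell of each group the 4 ratios were 1.53, 1.31, 0.816 and 0.778. Spats2l followed with a ratio of 9.31, had 90 of its 104 G6 UMIs in 1 cell, and its ratio without the highest cells was 1.30. Ung came next, the glycosylase that removes uracil from DNA, with 120 CPM in G6 cells and 41.7 in the other tags and a ratio of 2.98 (2.44 to 3.62). It was seen in 102 of 456 G6 cells. Cdc6, Mcm3 and Mcm4 were also among the 12 highest, together with Gm17251, a long non-coding RNA, Rnf152, a ubiquitin ligase, and Krt12, a keratin. Their ratios were 3.77 (2.26 to 6.10), 2.85 (1.82 to 4.33) and 2.36 (1.71 to 3.20), on 24, 29 and 52 UMIs in G6. A ranking made after leaving out the highest cell of each gene, chosen after seeing the data, held Ung, Cdc6, Mcm3, Mcm4, Mcm2 and Mcm6 among its 12. It also held Rpa2, a subunit of the protein that coats single-stranded DNA, at 1.90, and Cdca7, a DNA methylation cofactor, at 1.76, both as ratios with all cells.

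The lowest genes were all histone genes of a single family. All 12 lowest were Hist1h2a genes, and all 14 members of the family were lower in G6 cells, with a median log2 ratio of -4.73. Their sum was 577 CPM in G6 cells and 15727 CPM in the other tags, a ratio of 0.0380 (0.0351 to 0.0410). Hist1h2ab, the first, had 20 UMIs in G6 (17.9 CPM) and 7478 in the other tags (679 CPM), a ratio of 0.0273 (0.0167 to 0.0422). Hist1h2ap and Hist1h2ao had nearly equal UMIs in every group, 120 and 124 in G6 and 32339 and 31923 in the other tags. They are near-identical copies, so how reads were split within the family is uncertain and only the family sum is safe. Tags G2 and G1 carried most of the family: G2 had 41576 CPM and G1 had 34452 CPM, while G13 (592), G12 (621), G9 (640) and G15 (451) were near the Hist1h2a family level of G6. Across 66 replication histone genes the sum ratio was 0.0842 (0.0802 to 0.0885), with 56 of 63 tested lower, beside 15.9% of all genes tested. After thinning, 20.8% of G6 cells had a Hist1h2a UMI (95 of 456), below the 41.8% of microglia-marked cells (28.7 to 55.9). The marked cells are therefore no floor for this family, and the G6 share is not read as expression.

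Genes for copying DNA beyond licensing were also at a higher summed level in G6 cells than in the other tags. The 36 replication fork genes summed to 3586 CPM in G6 and 2862 CPM in the other tags, a ratio of 1.30 (1.25 to 1.34), with 8 higher and 1 lower. Highest were Dna2, a helicase and nuclease of Okazaki fragments, at 2.22 (1.49 to 3.24), and Pole2, a subunit of the leading-strand polymerase, at 1.97. Lowest were Recql4, a helicase, at 0.42 on 5 UMIs, and Pold3, of the lagging-strand polymerase, at 0.77. Pcna, the sliding clamp, was at 563 CPM in G6 and 396 CPM in the other tags. Of 16 genes of nucleotide supply, 4 were higher and 1 lower. For all genes tested the shares were 5.45% higher and 15.9% lower. Dctd, a dCMP deaminase, had a ratio of 2.30, while thymidine kinase Tk1 had 0.55 and the ribonucleotide reductase subunit Rrm2 0.81.

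Among regulators of S-phase entry, E2F genes had a sum close to that of the other tags and inhibitors a lower one. Of 13 E2F and pocket protein genes 3 were higher and 1 lower, and the sum ratio was 1.03 (0.92 to 1.15). Tfdp1, an E2F partner, and E2f6 had ratios of 1.63 and 1.53, and the repressor E2f8 had 0.40 on 8 UMIs in G6. Among 10 G1 cyclins and kinases only cyclin E gene Ccne1 was higher, at 1.94 (1.24 to 2.94), and the sum ratio was 1.13. Of 7 inhibitors of cyclin-dependent kinases 3 were lower and 0 higher, with a sum ratio of 0.773 (0.697 to 0.857), led by Cdkn2d at 0.41 (0.26 to 0.60) and Cdkn1c at 0.54. The inhibitor sum was not lower against the nearest tags, with ratios of 0.969 over G5 (0.836 to 1.12) and 1.02 over G7 (0.870 to 1.19). Chromatin assembly genes had a sum ratio of 1.18 (1.14 to 1.22). In that list Chaf1b, of the assembly factor that follows the fork, had 1.86 and Hells, a remodeller, 1.59, while Asf1b had 0.54 and Suz12 0.68. Of 26 tested genes of homologous recombination and checkpoint, 2 were higher, among them the checkpoint kinase Chek1 at 1.78, and 4 were lower. Beside the counts of this paragraph, 5.45% of all genes tested were higher and 15.9% lower. The recombination and checkpoint counts are near those shares.

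**Figure D2:**
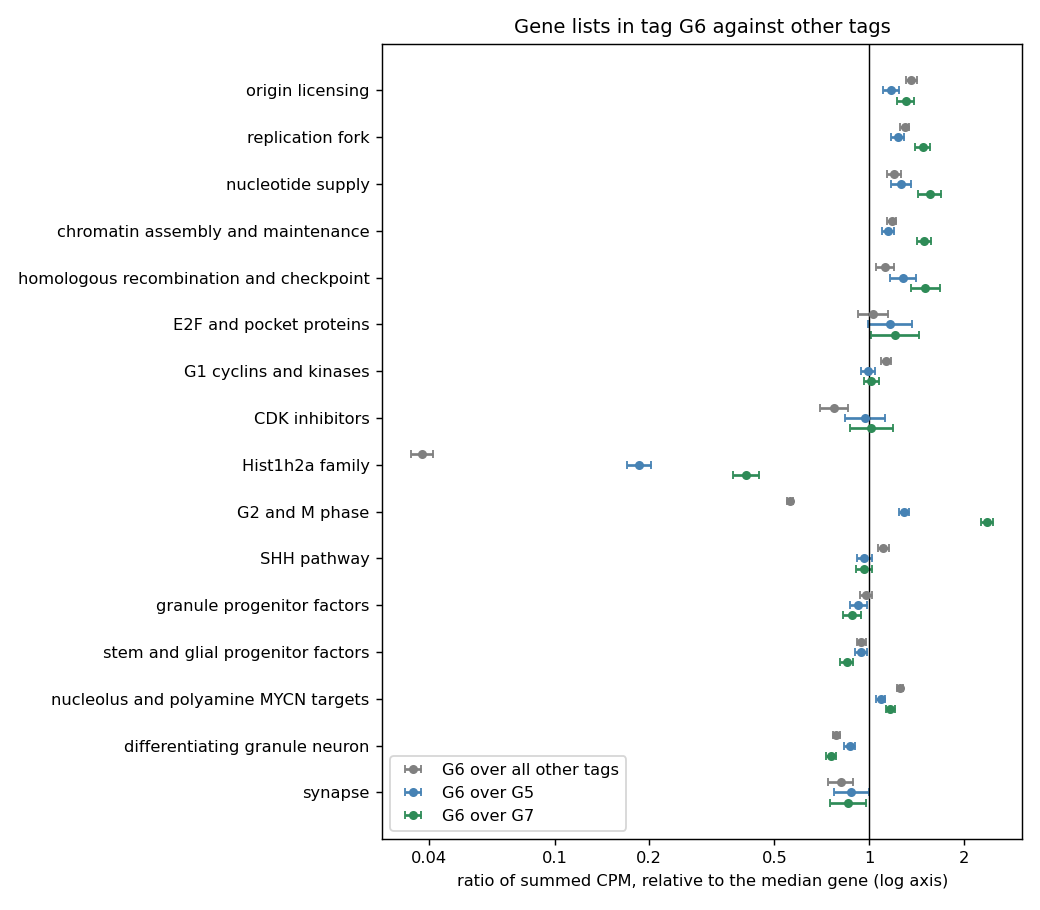
Ratio of the summed CPM of 16 gene lists, tag G6 over all other tags (grey), over G5 (blue) and over G7 (green), relative to the median gene, on a log axis, with exact 95% counting intervals. The Hist1h2a family is far below 1 in all 3 comparisons, and the G2 and M phase list is at 0.559 over all other tags but at 2.37 over G7.

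Genes of G2 and M phase were at a lower summed level in G6 than in all other tags together, but at a higher one than in G5 and G7. Against all other tags, 48 of 57 were lower and 0 higher, beside 15.9% and 5.45% of all genes tested. Their median log2 ratio was -1.41, with sums of 7098 CPM in G6 and 13130 CPM in the other tags (ratio 0.559, 0.547 to 0.572). Plk1, the kinase of mitotic entry, had 4 UMIs in G6 and 560 in the other tags, a ratio of 0.0729, and Gas2l3, a cytokinesis protein, had 4 and 392, a ratio of 0.104. Top2a, the topoisomerase that untangles chromosomes, was at 181 CPM in G6 and 747 CPM in the other tags, and Mki67, the proliferation antigen, at 185 and 512 CPM. Within the tags, 4 stood above G6 in this list. It was far higher in G16 (34618 CPM), G1 (27758 CPM) and G2 (14974 CPM), close in G3 (7839 CPM), and lower in G5 (5461 CPM) and G7 (3006 CPM) for G2 and M phase. After thinning, Mki67 was seen in 7.68% of G6 cells and Top2a in 5.70%, against 7.27% and 10.9% of microglia-marked cells. Those shares are not clearly above those of the marked cells, and neither cycling nor its absence is read from them.

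Hmgb2 was among the 9 genes of that list not called, with Cbx5 at 1.01 and Anp32e at 0.94. Hmgb2 encodes a chromatin protein of the HMG-box family that dividing cells make in quantity. It was at 2081 CPM in G6 cells and 2462 CPM in the other tags, a ratio of 0.874 (0.838 to 0.912), and had a UMI in 450 of 456 G6 cells and 2864 of 4340 other cells. After thinning to 500 UMIs, 58.6% of G6 cells had one (53.9 to 63.1), against 42.7% in G5, 10.2% in G7 and 45.6% in all other tags, with 23.6% of microglia-marked cells (13.2 to 37.0). The share in G7 is thus below the interval of the marked cells, and those in G6 and G5 are above it. Before thinning the shares were 98.7%, 83.3%, 33.5%, 66.0% and 43.6%.

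Hmgb2 was also counted together with the histone family in each thinned cell. In thinned cells, 213 of 456 G6 cells (46.7%, 42.1 to 51.4) had an Hmgb2 UMI and no Hist1h2a UMI. The same pattern was in 10.9% of G5 cells, 7.19% of G7 cells and 8.05% of all other cells, and in 0 of 892 G2 cells, where 78.0% had both. It was not confined to G6, with 31.4% of G16 cells (131 of 417, 27.0 to 36.1) and 15.9% of G15 cells. A Hist1h2a UMI with no Hmgb2 UMI was seen in 8.99% of G6 cells and 46.2% of G5 cells. In G7 the shares of both were within or below the intervals of microglia-marked cells, so its patterns are not read as expression. In G6, 41.4% of cells had no Hmgb2 UMI and 79.2% had no Hist1h2a UMI. Whether the joint share differs from what these separate shares would give was not tested. A missing Hist1h2a UMI in a G6 cell is not read as lack of expression. Within G6, Mcm2 to Mcm7 and Hmgb2 were seen together in 19.1% of cells, Mcm2 to Mcm7 alone in 19.5%, Hmgb2 alone in 39.5% and neither in 21.9%.

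**Figure D3:**
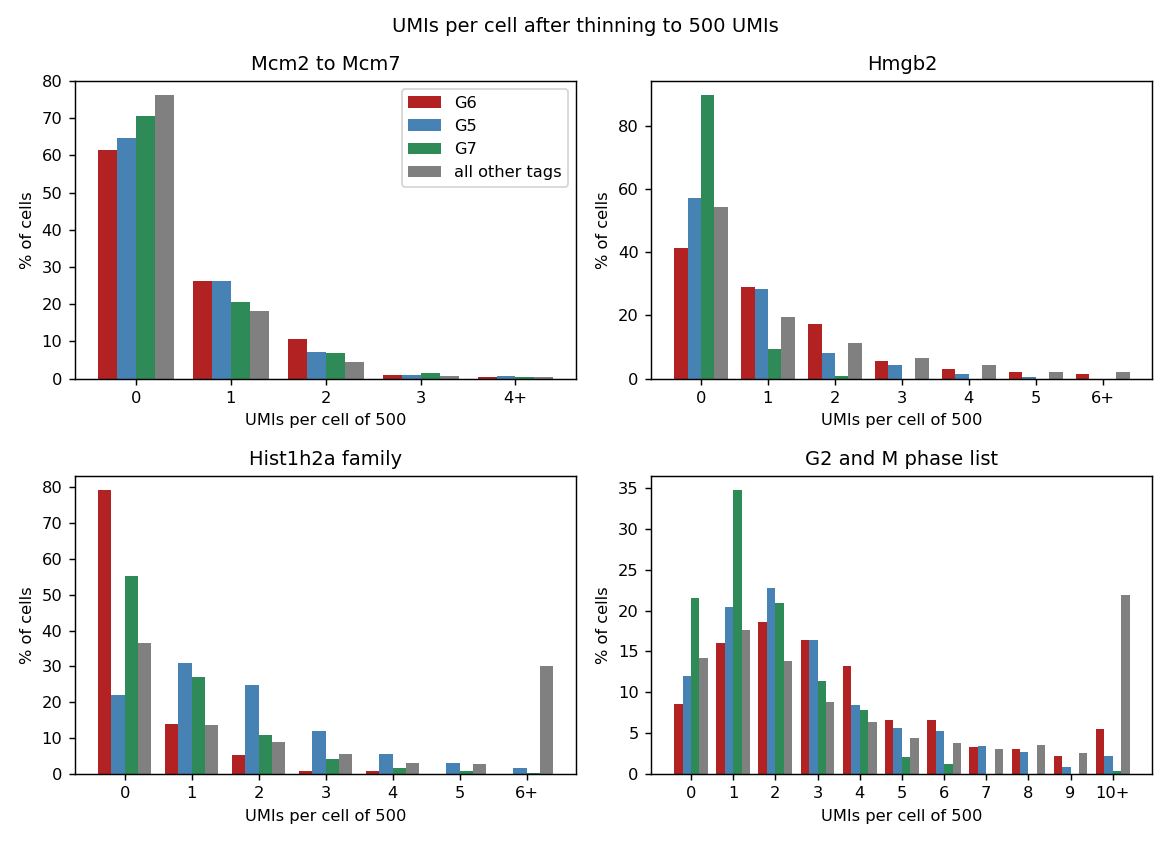
Share of cells (%) by the number of UMIs per cell after thinning to 500 UMIs, for Mcm2 to Mcm7, Hmgb2, the Hist1h2a family and the G2 and M phase list, in G6, G5, G7 and all other tags. The last bar of each panel holds that number or more. Most G6 cells have 0 Hist1h2a UMIs, with 20.8% above 0, while 58.6% have Hmgb2.

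G5, G3 and G7 had the summed profiles most like that of G6. Over 11085 genes the log2 CPM profile of G6 had Pearson correlations of 0.971 with G5, 0.968 with G3 and 0.966 with G7, and its lowest with G10 (0.60), a description across genes of 1 library. Of 5593 genes tested, 224 were higher in G6 than in G5 (4.01%) and 318 lower (5.69%). Among the widest contrasts were again the histone family and single cells. The Hist1h2a sum was 577 CPM in G6 and 3090 CPM in G5, a ratio of 0.185 (0.170 to 0.202), with all 12 tested members lower. Hist1h2ap had a UMI in 104 of 456 G6 cells and 307 of 377 G5 cells.

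Licensing genes lay above 1 throughout against G5, yet none passed the threshold. Of 16 tested, 0 were called and 16 were above 1, with a median log2 ratio of 0.22 and a sum ratio of 1.18 (1.11 to 1.25). Values ran from 1.03 for Orc3 and 1.05 for Orc6 up to 1.49 for Orc2 (1.08 to 2.09), with geminin just short of the threshold (1.10 to 2.05). Cdt1 stood at 1.07 (0.80 to 1.44), Mcm7 at 1.08, Orc5 at 1.12, Mcm3 and Mcm5 at 1.14, Orc4 at 1.15, Dbf4 and Cdc7 at 1.19, Mcm2 and Cdc6 at 1.23, Mcm4 at 1.28 and Mcm6 at 1.39 (1.13 to 1.72). The replication fork list had 6 of 30 higher and 0 lower, beside 4.01% and 5.69% of all genes tested over G5. Its sum ratio was 1.23 (1.17 to 1.29). Its highest were Gins3, of the active helicase, at 2.06 (1.23 to 3.54), and Rpa2 at 1.81, and its lowest the primase-polymerase subunit Pola1 at 0.82 and Gins2 at 0.85.

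Genes of late cycle stages were at a higher level in G6 than in G5. Of 39 tested genes of G2 and M phase, 13 were higher and 0 lower, beside 4.01% and 5.69% of all genes tested. Their sums were 7098 CPM in G6 and 5461 CPM in G5 (ratio 1.29, 1.25 to 1.34). Birc5, a passenger protein of dividing chromosomes, was at 80.6 CPM in G6 and 29.2 CPM in G5, a ratio of 2.74 (1.77 to 4.38), and Nuf2, of the kinetochore, had 2.36. Hmgb2 was at 2081 CPM in G6 and 1262 CPM in G5, a ratio of 1.64 (1.52 to 1.76). The gene listed as 2810417H13Rik, Pclaf in RefSeq, encodes a PCNA-binding factor and was at 472 CPM in G6 and 238 CPM in G5, a ratio of 1.97 (1.68 to 2.32). Phactr1, an actin and phosphatase regulator, had 57 UMIs in G6 and 16 in G5, a ratio of 2.93 (1.66 to 5.46). Uhrf1 and Chaf1b, of chromatin copying, had ratios of 1.76 and 1.97, and Rrm2 had 1.67.

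Several of the genes furthest apart between G6 and G5 were those of 1 cell. Hbb-bt, Hbb-bs, Hba-a2, Hba-a1 and Spats2l led again, with ratios between 12.2 and 41.8, and between 81.1% and 97.1% of each gene's UMIs over both tags were in 1 cell. On the other side Ms4a6b had 3 UMIs in G6 and 509 in G5, of which 498 were in 1 G5 cell. Zfp715 (3 and 130 UMIs, 126 in 1 G5 cell), Vmn1r208 (0 and 53, 48 in 1 G5 cell), Glis3 (1 and 61, 59 in 1 G5 cell) and 1700034H15Rik (1 and 51, 50 in 1 G5 cell) were alike. Apoe, the lipid carrier of glia and microglia, was at 103 CPM in G6 and 848 CPM in G5, a ratio of 0.121 (0.0983 to 0.147). It was seen in 50 and 74 cells, and its ratio without the highest cells was 0.108. Ctss, a microglial protease, had 8 UMIs in 3 G6 cells and 77 in 8 G5 cells. Microglia markers summed to 56.4 CPM in G6 and 358 CPM in G5, and 1 and 5 cells had at least 3 of the 12. The part of those cells in the Apoe and Ctss differences was not tested.

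Against G7, late-cycle genes were at a higher level in G6 cells. Of 5322 genes tested, 385 were higher in G6 (7.23%) and 341 lower (6.41%). Of 35 tested genes of G2 and M phase, 27 were higher and 0 lower, with a median log2 ratio of 1.60 and sums of 7098 CPM in G6 and 3006 CPM in G7 (ratio 2.37, 2.26 to 2.48). Hmgb2 was at 2081 CPM in G6 and 215 CPM in G7, a ratio of 9.70 (8.29 to 11.4), with a UMI in 450 of 456 and 112 of 334 cells. Birc5 had 90 UMIs in 66 G6 cells and 4 in G7, a ratio of 15.8 (5.96 to 59.2). Dlgap5, a spindle protein, had 52 UMIs in G6 and 2 in G7, a ratio of 18.3 with an interval of 4.81 to 155, which shows how little 2 UMIs fix. Without the highest cells, Cdca8, Cdc20, Ccnb2, Cenpa, Cks2 and Kif15 stood beside Hmgb2 and Birc5 at the head of the ranking, a choice made after seeing the data. All of them act in mitosis, and with all cells they had 99, 87, 98, 149, 168 and 62 UMIs in G6 and 8, 6, 8, 17, 23 and 7 in G7.

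Licensing and synthesis genes also separated G6 from G7. Of 15 licensing genes tested, 8 were higher and 0 lower, beside 7.23% and 6.41% of all genes tested over G7. Their median log2 ratio was 0.63, with sums of 2537 CPM in G6 and 1950 CPM in G7 (ratio 1.31, 1.23 to 1.39). Geminin had 109 CPM in G6 and 43.6 CPM in G7, a ratio of 2.52 (1.71 to 3.80). Cdc6 had a ratio of 2.11 (1.27 to 3.63), Cdc7 2.03, Orc2 1.79, Mcm5 1.77, Cdt1 1.66, Mcm2 1.62 and Mcm3 1.54. Mcm4 had 1.42, Mcm7 1.31, Mcm6 1.23 (0.99 to 1.52), Orc4 1.15, Orc5 1.07, Orc6 0.89 and Orc3 0.75, none past the threshold. The fork list had 16 of 29 higher and 1 lower, led by Dscc1, of a clamp loader, at 2.88 (1.42 to 6.44) and Topbp1, of origin firing, at 2.18, with Pold2 lowest at 0.64. Nucleotide supply had 8 of 12 higher, with Rrm2 at 4.01 (2.51 to 6.72). Uhrf1 had 2.21 and the histone chaperone Nasp 1.96 (1.79 to 2.16). Cyclin E gene Ccne2 had 2.41 (1.36 to 4.51), and Cdkn1a, the p53-driven inhibitor, 49 UMIs in G6 and 10 in G7, a ratio of 3.44 (1.72 to 7.62).

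The Hist1h2a family was also lower in G6 cells than in G7 cells. The Hist1h2a sum was 577 CPM in G6 and 1426 CPM in G7, a ratio of 0.406 (0.368 to 0.448). All 12 tested members were lower, beside 6.41% of all genes tested. After thinning, 44.6% of G7 cells had a Hist1h2a UMI, within the interval of microglia-marked cells, so neither share is read as expression and the ratio is only one of the levels counted. Hist1h2af was furthest apart, with 34.0 CPM in G6 and 117 CPM in G7, a ratio of 0.293 (0.195 to 0.433). Single cells again gave some of the extremes: 90 of 90 G7 UMIs of Ms4a6b, 64 of 85 of Tle3 and 64 of 94 of Ap3s2 were in 1 G7 cell. S100a16, a calcium-binding protein, had 27 UMIs in G6 and 57 in G7, a ratio of 0.333. Without the highest cells, Cttnbp2, Myt1l and Mllt11, genes of neurons, joined the lowest 8, with 28, 24 and 57 UMIs in G6 and 54, 47 and 91 in G7 over all cells.

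Differentiation genes were at a lower level in G6 than in each set it was compared with. The 28 differentiating granule neuron genes summed to 5258 CPM in G6, 6020 CPM in G5, 6967 CPM in G7 and 6915 CPM in all other tags. The ratios were 0.867 over G5 (0.835 to 0.899), 0.758 over G7 (0.730 to 0.786) and 0.787 over all other tags (0.766 to 0.808). None was higher in any comparison, and 3 of 22, 6 of 22 and 7 of 25 tested were lower. Beside these, 5.69%, 6.41% and 15.9% of all genes tested were lower, and 4.01%, 7.23% and 5.45% higher. At such shares few of these genes would be called higher, so the lack of higher ones is not read as a result. Dcx, the microtubule protein of migrating neurons, was at 66.3 CPM in G6, 116 in G5, 137 in G7 and 120 in all other tags, with ratios of 0.569, 0.486 and 0.570. Nrcam, an adhesion molecule, had ratios of 0.621 over G5 and 0.568 over G7. Syt1, a vesicle sensor, had 0.340 over all other tags on 4 UMIs, and Crmp1, of growing axons, was at the top of the list there with 1.17. Grin2b, a glutamate receptor subunit, had 0 UMIs in G6 and 79 in the other tags. The exact interval of its ratio ended at 0.488.

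Progenitor identity showed small differences. Atoh1, the factor that keeps granule progenitors dividing, was at 119 CPM in G6, the highest of the 16 tags, beside 118 CPM in G7 and G15 and 102 CPM in G5, which counting error cannot separate. Against all other tags together (77.3 CPM) its ratio was 1.60 (1.32 to 1.92). The remaining members of the granule progenitor list ran from 0.35 for Id3 and 0.81 for Zic1 to 1.26 for Hes6. The whole list, Atoh1 included, had a sum ratio of 0.976 (0.932 to 1.02). Over G5 and over G7 none of the 11 tested was called, and Meis1, a homeobox factor, was at 0.75 and 0.70. The shares called of all genes tested were 4.01% higher and 5.69% lower over G5, and 7.23% and 6.41% over G7. The SHH list had 5 of 15 tested higher and 1 lower over all other tags, beside 5.45% and 15.9% of all genes tested. Its sum ratio was 1.11 (1.07 to 1.15). Evc, of the primary cilium, was at 1.91 and Ptch1 at 1.59, on 12 and 20 UMIs in G6. Gas1, an SHH co-receptor, was lowest at 0.544. Over G5 the SHH sum ratio was 0.966 (0.913 to 1.02) and over G7 it was 0.960 (0.906 to 1.02). Gli1, the pathway's target, was at 96.8 CPM in G6, 97.3 in G5, 91.0 in G7 and 96.6 in all other tags.

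**Figure D4:**
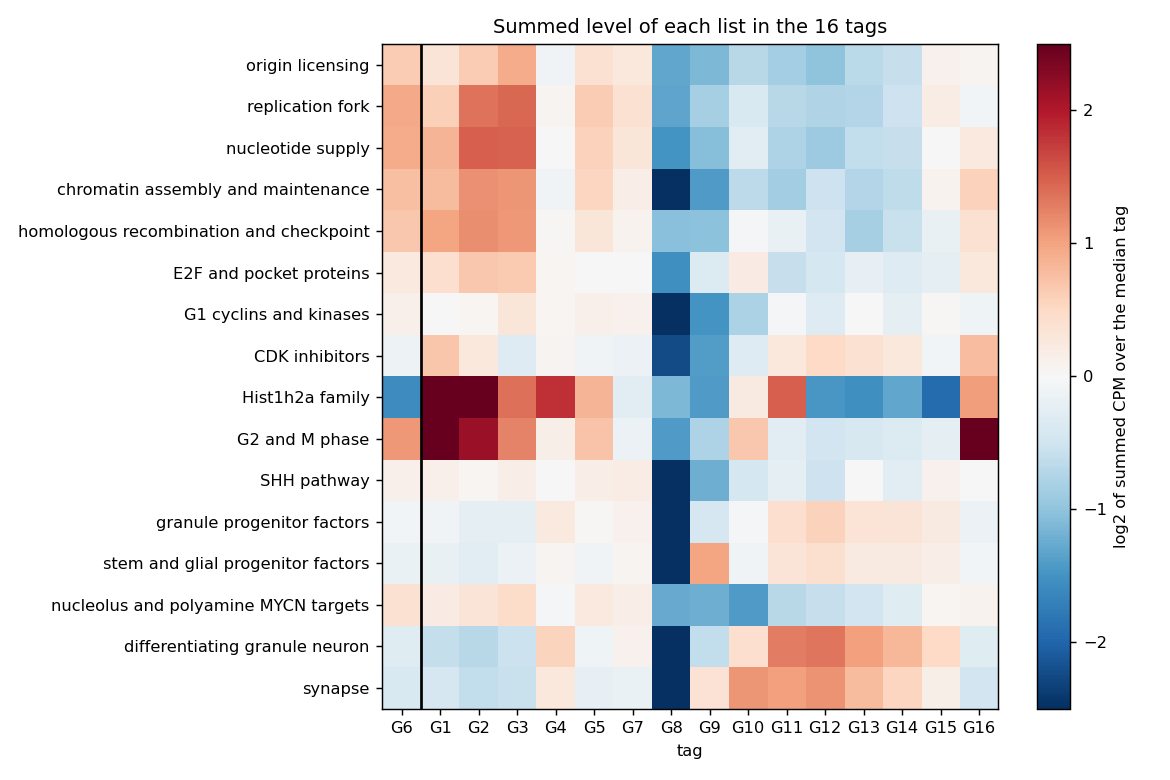
Summed CPM of 16 gene lists in each tag, G6 at the left of the line, as log2 over the median tag, with colours that saturate at 2.5 in either direction. G6 shares its high licensing and replication levels with G2, G3 and G5, but its Hist1h2a family level, 577 CPM, is below that of 14 of the other 15 tags.

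Few G6 cells carried several markers of another cell type. At least 3 markers of microglia were seen in 1 of 456 cells, of the oligodendrocyte lineage in 4, of astrocytes and Bergmann glia in 16, of choroid plexus in 2, of erythroid cells in 2, and of vascular cells, lymphocytes or interneurons in 0. The same counts among 4340 cells of the other tags were 54, 94, 166, 21 and 5, and 14, 0 and 2. For astrocytes and Bergmann glia they were 24 of 377 cells in G5 and 9 of 334 in G7. Low counts were thus not particular to G6. The summed microglia markers were at 56.4 CPM in G6, and at 24.3 CPM without its highest cell, against 358 in G5, 16.7 in G7 and 326 in all other tags. The astrocyte list was at 401 CPM in G6, 1306 in G5, 591 in G7 and 1040 in all other tags. At 0 UMIs in G6 were P2ry12 of microglia, Sox10, Gpr17, Mag and Bmp4 of the oligodendrocyte lineage, 7 of 13 vascular markers including Cldn5 and Pdgfrb, Folr1, Aqp1 and Kcnj13 of choroid plexus, and Gad1, Gad2, Slc32a1 and Skor2 of interneurons. The interneuron list as a whole summed to 452 CPM in G6, 466 in G5, 450 in G7 and 428 in all other tags. Nearly all of it was Lhx1, a homeobox factor, at 443.5 CPM in G6 and 419 in all other tags, with a UMI in 218 of 456 and 2168 of 4340 cells. Slc1a3, a glial glutamate transporter, was at 24.2 CPM in G6, 68.1 in G5, 67.9 in G7 and 63.8 in all other tags, and Fabp7, of radial glia, had 3 UMIs in G6. In the stem and glial list, Sox9 was the highest member over all other tags, at 1.36.

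The neighbours of G6 cells in expression space were mostly of a few tags. Each cell's 15 nearest neighbours were found over 2000 variable genes and 30 principal components. Of the neighbours of G6 cells, 42.0% were G6 cells, which make up 9.51% of kept cells, 14.2% were G7, 12.5% G5, 8.19% G15, 6.49% G13 and 5.56% G3, while G2 gave 0.0585%. Of kept cells, 6.96% were G7, 7.86% G5, 5.92% G15, 10.5% G13, 4.61% G3 and 18.6% G2, so G13 and G2 were below their share. When the Hist1h2a family and Hmgb2 were left out, a choice made after seeing the data, 20.1% were G6 cells, 26.5% G2, 12.2% G5, 10.6% G3 and 9.97% G7. No label says whether the tags were made from the same values.

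**Figure D5:**
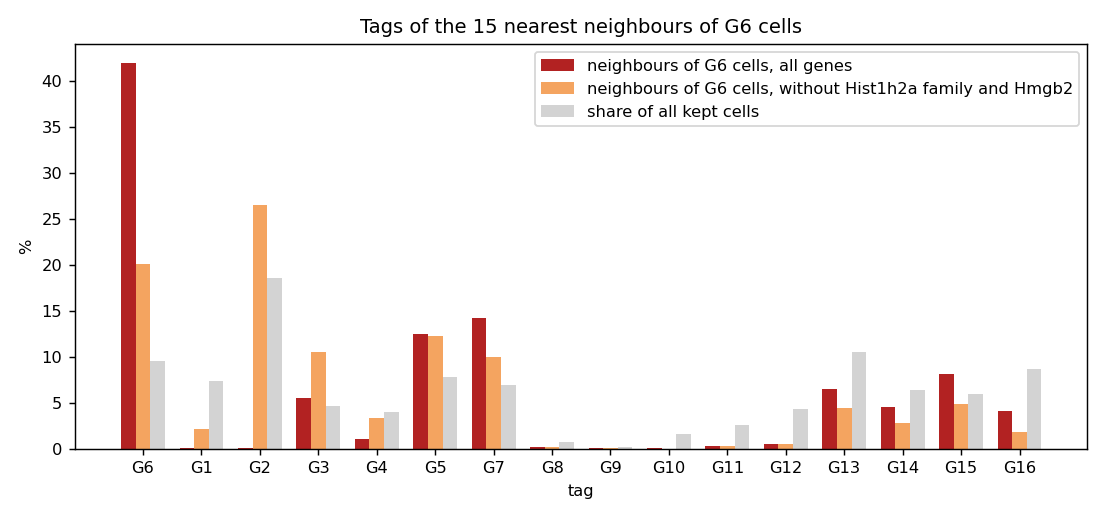
Tags of the 15 nearest neighbours of G6 cells (%), with all variable genes (red) and without the Hist1h2a family and Hmgb2 (orange), beside each tag's share of kept cells (grey). The G6 share is 42.0% with all genes and 20.1% without them, where G2 has 26.5%.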

How the data were processed

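The P24-30 library holds, as deposited, natural log values for 4991 cells and 19714 genes. On the linear scale, less 1, they sum to about 10000 per cell. Each cell's values were divided by its smallest, and 100% of the 6195642 values above 0 came out whole within 0.001, which gave the UMIs. The P12 library holds counts as deposited, of which only the number of barcodes was used. The submitters' processing notes name CASAVA and the build mm10, with no role. The aligner, the counter and the annotation were not given in the sources used here. Column names are numbered, so cell barcodes shared between libraries could not be counted. Of all other tags 146 cells were removed for few UMIs and 49 for mitochondrial UMIs.

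UMIs were summed over the cells of a tag. Ratios carry exact Clopper-Pearson intervals on the summed count, divided by the median gene's ratio (log2 -0.05, 0.01 and -0.01 over all other tags, G5 and G7). Genes without a UMI took a floor of 3 UMIs over the group. Thinning drew 500 UMIs per cell with seed 1, and left out 0 G6 cells and 7 other cells. No doublet caller was run, so doublets can remain; cells above the 95th percentile of UMIs were left out as an alternative. With 1 library there was no test. The calculations were tested on simulated data. Python 3.11.15, numpy 2.4.6, scipy 1.17.1, pandas 2.3.3, scanpy 1.11.5, scikit-learn 1.9.0 and matplotlib 3.10.9 were used.

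The members and gene lists were chosen with earlier results of these data known. Named genes are Mcm6, Mcm3, Cdt1, every licensing gene, the 2 highest and 2 lowest of each list, and the 12 (over all other tags) or 8 (over G5 and G7) highest and lowest by the interval bound nearest 1. Some genes that this rule names are not reported here. Others were named outside this rule or after their values were seen: Pcna, Hmgb2 over all other tags, Top2a, Mki67, Gli1 and Malat1.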

Additional observations from a re-analysis of the deposited data

How the results depend on the processing

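Of 141 values under alternative settings, 111 stayed within the limit set for each (1.5-fold for a count, the counting interval for a ratio or share), 30 moved and 0 ratios changed direction. With the mean of per-cell CPM, ratios over all other tags were 1.45 for licensing, 0.715 for G2 and M phase and 0.703 for granule neuron genes, and 1.22 for licensing over G7. Without division by the median gene, G2 and M phase was 0.541 and granule neuron genes 0.760 over all other tags. Without cells above the 95th percentile of UMIs, granule neuron genes were 0.759 over all other tags and 0.796 over G7. After thinning to 500 UMIs, the ratios over all other tags were 1.43 for licensing, 0.671 for G2 and M phase and 0.689 for granule neuron genes, while G2 and M phase was 1.24 over G5 and 2.21 over G7. Counts of genes past 1.5-fold then were 60 higher and 72 lower over G5, and 81 higher and 55 lower over G7. With at least 100 UMIs per gene they were 347 higher over all other tags, 66 higher and 80 lower over G5, and 148 higher and 109 lower over G7. With at least 1 UMI per gene they were 5792 higher and 3529 lower over all other tags, 3299 higher and 3756 lower over G5, and 2956 higher and 3553 lower over G7. At that setting a gene with 0 UMIs in G6 takes the floor of 3 UMIs and can count as higher on 1 UMI elsewhere. Such counts depend on the filter and the floor, and no direction is read from them. Over G7 the larger of the 2 directions turned, to 358 higher and 370 lower, with totals that leave out ribosomal protein and mitochondrial genes. The share of G6 cells with an Mcm2 to Mcm7 UMI was 80.7% without thinning and 60.5% at 1000 UMIs, with 3 G6 cells below that depth. Chosen after seeing the data, leaving out the haemoglobin cell moved none of the counts of called genes or the ratios of licensing, G2 and M phase and granule neuron genes beyond those limits. Leaving out the highest cell of each gene, also chosen then, was run for the counts only and moved none of them beyond 1.5-fold. No paired analysis was possible because there is 1 library with no replicates. Single-gene shares that rest on a UMI in few of the thinned cells, such as that of Cdt1, cannot be separated from background at this depth.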

Other observations

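The gene groups outside the cell cycle given here had sum ratios between 0.812 and 1.31. Ribosomal protein genes had a median log2 ratio of 0.27 over all other tags, with 2 of 116 tested higher, and -0.01 over G5 and -0.04 over G7. The 14 nucleolar and polyamine genes known as MYCN targets were above 1 in 14 of 14 cases over all other tags. Of them 2 were higher, Nhp2 at 1.65 and Gnl3 at 1.52, beside 5.45% of all genes tested. Their sum ratio was 1.26 (1.23 to 1.29). Over G7 that sum ratio was 1.17 (1.13 to 1.21), with Odc1, the polyamine enzyme, at 1.60, and over G5 it was 1.09 (1.05 to 1.13). Glycolysis genes had a sum ratio of 1.20 over all other tags, with Ldha, which makes lactate, at 1.58, but 1.00 over G5 and 1.05 over G7, where Aldoa was at 0.71 and 0.66.

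Hey1, a Notch target, was at 136 CPM in G6 cells, 110 CPM in G5, 131 CPM in G7 and 82.0 CPM in all other tags, with a ratio of 1.72 (1.44 to 2.04) over the last. Notch1 and Notch2, the receptors, had 4 and 2 UMIs in G6. Immediate early genes, which dissociation can induce, had sum ratios of 1.04 over all other tags, 1.07 over G5 and 1.04 over G7, and those of the interferon response 0.928, 0.946 and 1.31 on 138 UMIs in G6. For p53 targets the sum ratios were 1.11, 0.924 and 1.11, and for cholesterol synthesis 1.06, 1.01 and 0.980, with Idi1 at 1.56 over all other tags. Synapse genes had 0.812, 0.876 and 0.858. Malat1, a nuclear RNA, was at its lowest level of the 16 tags in G6 cells, 4190 CPM, against 5191 in G5, 5055 in G7 and 6278 in all other tags.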
